A study of Homo sapiens with 10 samples.

Results

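Tissue factor, thrombin and the plasminogen activators were followed through 9 genes, F3, TFPI, TFPI2, PROCR, THBD, SERPINE2, PLAU, PLAUR and PLAT, all found by symbol among the 27884 genes of the files. They start, limit or localise proteases that act upstream of the receptor PAR1. Expression was measured by RNA sequencing in PANC-1, a human cell line derived from a pancreatic ductal adenocarcinoma, in a study of PAR1 and ductal cell fate. A lentivirus delivered a hairpin against F2R, the PAR1 gene, to the cells of 5 libraries (shPAR1, numbered 1 to 5) and a control hairpin to those of 5 others (shCtrl, numbered 6 to 10). All cells were grown in DMEM with serum and selected with puromycin. Each arm rests on a single hairpin in a single cell line, so loss of PAR1 and any other effect of that hairpin cannot be told apart. It is not stated whether the libraries of an arm stem from separate cultures, so the p-values cover the spread between these samples and no more.

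Tissue factor, the product of F3, sits in the cell membrane and starts coagulation by binding factor VIIa, and the coagulation that follows generates thrombin, the classical activator of PAR1. TFPI and TFPI2 encode Kunitz-type inhibitors, thrombomodulin (THBD) and the endothelial protein C receptor (PROCR) redirect thrombin towards activation of protein C, and SERPINE2 encodes protease nexin-1, an inhibitor of thrombin and of urokinase. Urokinase (PLAU) and tissue-type plasminogen activator (PLAT) convert plasminogen to plasmin, and PLAUR encodes the receptor that holds urokinase at the cell surface. Pancreatic ductal adenocarcinoma is known for tissue factor expression and for a high rate of thrombosis.

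Values are on a log2 scale, the log2 of a read count divided by a size factor for the library (the normalized count) plus 1. The libraries held 15335264 to 25369056 counts, and mitochondrial genes took 7.37% to 9.08% of them in shPAR1 against 5.71% to 7.07% in shCtrl libraries. The part of this difference in the results was not tested. F2R was at 10.20, 10.24, 10.32, 10.18 and 10.21 in shPAR1 libraries 1 to 5 and at 11.81, 11.75, 11.75, 11.80 and 11.82 in shCtrl libraries 6 to 10, so all 10 libraries fitted their labels. Of 5 markers of ductal epithelium, KRT8, KRT18, KRT19 and EPCAM were lower in shPAR1 cells and KRT7 did not pass. Of all tested genes 21.9% were lower. The summed normalized counts of the 5 markers were 35710 to 41869 in shPAR1 and 53503 to 56827 in shCtrl libraries. In RNA from a whole culture, fewer cells of a type and less RNA per cell cannot be told apart.

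Of the 9 genes, F3, TFPI, TFPI2 and PLAT were higher and PLAU and SERPINE2 lower in shPAR1 cells, whereas PROCR, THBD and PLAUR did not pass the test. The test was limma's moderated linear model over the 17518 genes whose normalized count reached 10 in 5 or more libraries, with an adjusted p under 0.05 as the threshold, and all 9 genes met this count minimum. TFPI2 met it only through the shPAR1 libraries, where it was high, so its call and its lack of overlap are not independent of the filter. Calls were common in this comparison. They covered 40.9% of all tested genes, 19.0% in the higher and 21.9% in the lower direction, beside 6 of the 9 genes, 4 higher and 2 lower. The groups did not overlap for 5 of the 9 genes (F3, TFPI, TFPI2, SERPINE2 and PLAU), beside 29.2% of all tested genes. The median log2 fold change was 0.35 over the 9 genes and -0.0046 over all tested genes. The first of these is the value of THBD alone, which did not pass and had a 95% confidence interval of -0.27 to 0.98. It therefore does not show a shift of the 9 genes as a whole.

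**Figure D1:**
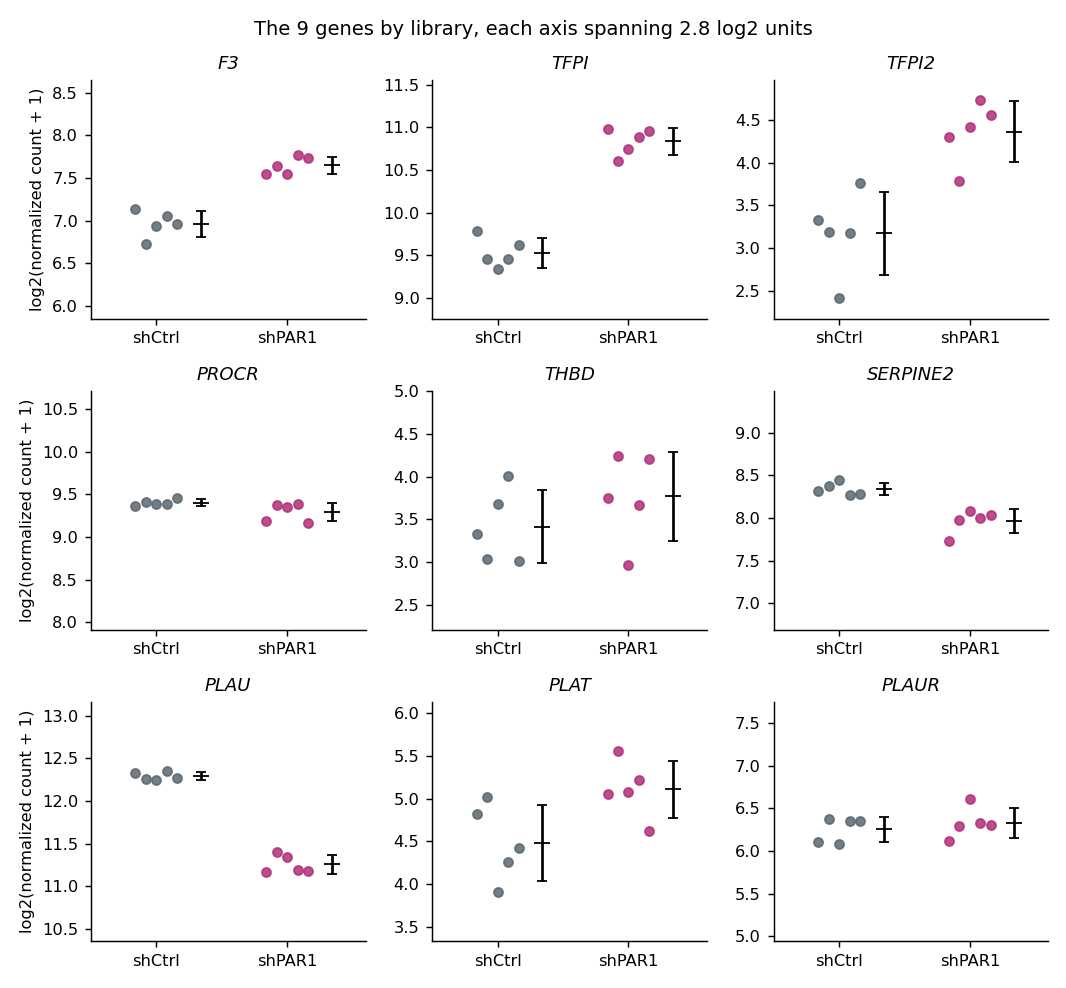
Log2 values (y axis of each panel, log2 of normalized count + 1) of the 9 genes in the 5 shCtrl and 5 shPAR1 libraries, with points for libraries and bars for mean and SD (n = 5). The groups are apart for F3, TFPI, TFPI2, SERPINE2 and PLAU and share part of their range for PROCR, THBD, PLAUR and PLAT.

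F3, the gene of tissue factor itself, was higher in shPAR1 cells, with no overlap between the groups. It lies on the minus strand of chromosome 1 of GRCh38, at 94529173 to 94541759 (ENSG00000117525). Its log2 values were 7.55, 7.64, 7.55, 7.77 and 7.73 in shPAR1 libraries 1 to 5 and 7.14, 6.73, 6.94, 7.06 and 6.97 in shCtrl libraries 6 to 10. The lowest shPAR1 libraries, 1 and 3, still lay 0.41 above the highest shCtrl library, 6. In normalized counts this was 200.1 ± 14.4 in shPAR1 and 125 ± 12.9 in shCtrl cells (mean ± SD, n = 5 each), a 1.61-fold difference. The log2 fold change was 0.68 (standard error, SE, 0.089, 95% confidence interval 0.50 to 0.87, adjusted p = 6.93e-06 from limma). Taken on its own, F3 gave a two-sided p of 0.00794 in an exact permutation test over the libraries, the smallest that 5 against 5 allow. Such permutation p-values of single genes are given here and for the other genes without adjustment. Any gene whose groups do not overlap has the p of 0.00794 in this test. That value therefore only restates the lack of overlap, which 29.2% of all tested genes had. F3 is listed in the acinar gene signature that the study applied to these cells.

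TFPI, whose product blocks factor Xa and the complex of tissue factor with factor VIIa, was also higher in shPAR1 cells, again without overlap. The gene lies on the minus strand of chromosome 2, at 187464230 to 187565760 (ENSG00000003436). It was at 10.98, 10.60, 10.75, 10.89 and 10.95 in the shPAR1 libraries and at 9.79, 9.46, 9.34, 9.45 and 9.62 in the shCtrl libraries. The groups stood 0.82 apart, which is more than the whole range of either group. TFPI was 2.47-fold higher in shPAR1 cells, with a log2 fold change of 1.30 (SE 0.081, 95% confidence interval 1.13 to 1.47, adjusted p = 4.87e-10 from limma, exact permutation p = 0.00794), and 98.1% of all tested genes changed by less. The antisense gene CALCRL-AS1 shares 118 exon bases with TFPI. It held 9 to 24 counts per library beside 599 to 1931 for TFPI.

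TFPI2 encodes a related inhibitor, found in the extracellular matrix, that blocks plasmin and trypsin and has little effect on tissue factor. It lies on the minus strand of chromosome 7, at 93885396 to 93890753 (ENSG00000105825) and held only 4 to 24 counts per library, so that its values carry more counting error. In shPAR1 libraries it was at 4.30, 3.79, 4.42, 4.74 and 4.56 and in shCtrl libraries at 3.33, 3.19, 2.41, 3.18 and 3.76. The groups did not overlap, but library 2 of shPAR1 and library 10 of shCtrl lay only 0.03 apart. TFPI2 had a log2 fold change of 1.19 (SE 0.27, 95% confidence interval 0.61 to 1.76, adjusted p = 0.00189 from limma, exact permutation p = 0.00794). In normalized counts it was 2.38-fold higher, at 20.03 ± 4.79 against 8.42 ± 2.94 (SD, n = 5 each). The shCtrl mean lay below the count minimum of 10, so TFPI2 entered the test through its shPAR1 libraries. TFPI2 is listed in the study's ductal signature, and it rose as F3 of the acinar signature did.

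RefSeq promoters (GRCh38.p14, from 250 bases before to 50 after a transcription start) were found for F3, TFPI, TFPI2, PROCR, SERPINE2, PLAU and PLAUR, and THBD and PLAT had no entry. The motif TGANTCA was read on both strands and is known as a binding sequence of AP-1 factors. It was present in 7.71% of all 35116 promoters and in 3 of the 9 promoters here, those of F3, TFPI2 and PLAUR. These are shown because F3 and TFPI2 rose and PLAUR, with the same motif, did not pass the test. They read 5′ to 3′ on the gene's own (minus) strand in lower case, and capitals mark the motif. The promoter sequence of F3 covers chr1:94541760-94542009, that of TFPI2 covers chr7:93890754-93891003, and for PLAUR a stretch around the motif is given, chr19:43670338-43670366. The PLAUR stretch lies within annotated exons of PLAUR itself.
F3: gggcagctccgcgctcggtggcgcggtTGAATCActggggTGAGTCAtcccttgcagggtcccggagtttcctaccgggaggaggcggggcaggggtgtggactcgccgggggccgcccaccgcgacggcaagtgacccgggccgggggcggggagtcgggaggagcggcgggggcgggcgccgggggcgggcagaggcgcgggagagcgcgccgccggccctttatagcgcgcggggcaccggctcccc
TFPI2: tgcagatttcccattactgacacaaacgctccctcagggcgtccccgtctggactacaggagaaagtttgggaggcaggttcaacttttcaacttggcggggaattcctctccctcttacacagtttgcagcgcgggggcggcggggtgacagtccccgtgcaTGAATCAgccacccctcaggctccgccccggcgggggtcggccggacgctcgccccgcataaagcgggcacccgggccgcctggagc
PLAUR: tcacaactccaTGAGTCAgggccgagcca

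F3 held 2 copies of the motif, at positions -223 and -210 from the transcription start, TFPI2 held 1 copy at -87 and PLAUR 1 copy at -186. The GC box GGGCGG, bound by Sp1-type factors, occurred in 6 of the 9 promoters here and in 45.0% of all promoters. Those 6 belong to 5 genes (F3, TFPI2, PROCR, SERPINE2 and PLAU). SERPINE2 and PLAU each had more than 1 promoter window, and PLAU held the GC box in 1 of them only. TATAAA was found for F3 and PROCR (11.5% of all promoters) and CACGTG, the E-box bound by Myc, in 1 window of SERPINE2 (7.26% of all promoters). TFPI, the gene with the largest rise of the 9, held none of these motifs in its window and had a GC content of 39.3%, against 77.3% for F3. The windows of TFPI, SERPINE2, PLAU and PLAUR lie inside the annotated genes, so sequence before the outermost start of these genes was not read. Annotated exons cover 144 of the 250 upstream bases for TFPI, 164 in 1 window of SERPINE2 and all 250 for PLAU and PLAUR. Exons of other genes cover 73 upstream bases for F3 and 91 for TFPI2. A match of letters is a description of these windows and does not show that a factor binds there.

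PROCR and THBD, whose products act with thrombin on protein C, did not pass the test. PROCR lies on the plus strand of chromosome 20, at 35172072 to 35216240 (ENSG00000101000) and was at 9.18, 9.37, 9.35, 9.39 and 9.16 in shPAR1 and at 9.36, 9.42, 9.39, 9.39 and 9.46 in shCtrl libraries. Libraries 1, 3 and 5 were lower than all shCtrl libraries, library 3 only just (9.35 against 9.36 in library 6). Libraries 2 and 4 lay among the shCtrl libraries. Its log2 fold change was -0.11 (SE 0.056, 95% confidence interval -0.23 to 0.004, adjusted p = 0.117 from limma). Tested alone, PROCR had an exact two-sided permutation p of 0.0397, which is not adjusted for the other genes. With 467 to 899 counts per library the interval leaves room for a decrease of up to 0.23 and for almost no increase. A long noncoding RNA gene on the opposite strand (ENSG00000278367) shares 218 exon bases with PROCR and held 0 to 4 counts per library.

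THBD lies on the same chromosome, on the minus strand at 23045633 to 23049672 (ENSG00000178726), and had 6 to 21 counts per library. It was at 3.75, 4.25, 2.96, 3.67 and 4.21 in shPAR1 and at 3.33, 3.04, 3.68, 4.01 and 3.01 in shCtrl libraries. The highest and the lowest of these 10 values both came from shPAR1 cells. The log2 fold change of 0.35 (SE 0.30, 95% confidence interval -0.27 to 0.98, adjusted p = 0.37 from limma, exact permutation p = 0.27) covers changes from a small decrease to a rise of 0.98, so a difference was not detectable at this depth.

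SERPINE2, the gene of protease nexin-1, was lower in shPAR1 cells. It lies on the minus strand of chromosome 2, at 223975045 to 224039318 (ENSG00000135919). Its log2 values were 7.73, 7.98, 8.09, 7.996 and 8.03 in shPAR1 and 8.31, 8.38, 8.45, 8.27 and 8.29 in shCtrl libraries. Library 1 was the lowest, and the groups stood 0.19 apart. Normalized counts were 249.8 ± 22.7 in shPAR1 and 324 ± 16.7 in shCtrl cells (mean ± SD, n = 5 each), which is 22.8% lower. The log2 fold change was -0.38 (SE 0.073, 95% confidence interval -0.53 to -0.22, adjusted p = 4.56e-04 from limma, exact permutation p = 0.00794), and without library 1 it was -0.32.

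PLAU, which encodes urokinase, fell by 1.04 on the log2 scale in shPAR1 cells. It lies on the plus strand of chromosome 10, at 73909177 to 73917496 (ENSG00000122861). In shPAR1 libraries it was at 11.17, 11.40, 11.35, 11.19 and 11.19 and in shCtrl libraries at 12.33, 12.26, 12.25, 12.35 and 12.27. Values within a group lay close together, while the gap between the groups was 0.85. PLAU was 51.2% lower in shPAR1 cells (2451 ± 186 against 5020 ± 158 normalized counts, SD, n = 5 each). The log2 fold change was -1.04 (SE 0.049, 95% confidence interval -1.14 to -0.93, adjusted p = 1.17e-11 from limma, exact permutation p = 0.00794), and 96.8% of all tested genes changed by less. C10orf55, a long noncoding RNA gene on the opposite strand, shares 915 of the 2949 exon bases of PLAU and held 5 to 47 counts beside 1848 to 6306 for PLAU. The sources used here do not say whether counting used strand, and reads from the shared bases cannot be assigned to one strand.

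PLAUR, the urokinase receptor gene, did not pass the test. It lies on the minus strand of chromosome 19, at 43646095 to 43670547 (ENSG00000011422) and was at 6.12, 6.29, 6.61, 6.32 and 6.30 in shPAR1 and at 6.11, 6.37, 6.08, 6.35 and 6.35 in shCtrl libraries. The 2 groups covered nearly the same range, with library 3 as the highest of all. The log2 fold change was 0.07 (SE 0.12, 95% confidence interval -0.17 to 0.32, adjusted p = 0.653 from limma, exact permutation p = 0.603). The interval does not reach the change measured for PLAU.

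PLAT, the gene of tissue-type plasminogen activator, lies on the minus strand of chromosome 8, at 42174718 to 42207709 (ENSG00000104368) and passed the test only narrowly. Its log2 values were 5.06, 5.56, 5.08, 5.22 and 4.62 in shPAR1 and 4.82, 5.02, 3.91, 4.26 and 4.42 in shCtrl libraries. Library 5 of shPAR1 lay below libraries 6 and 7 of shCtrl, so the groups overlapped. PLAT had a log2 fold change of 0.62 (SE 0.22, 95% confidence interval 0.15 to 1.09, adjusted p = 0.0326 from limma, exact permutation p = 0.0397) and was 1.54-fold higher in normalized counts, from 13 to 54 counts per library. The call was lost without library 2, 3, 4, 8, 9 or 10, left out in turn, with log2 fold changes of 0.48 to 0.63 and adjusted p of 0.0518 to 0.0931 from limma.

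Levels of different genes were compared per length, as normalized counts per kilobase of merged exons. In shCtrl cells PLAU stood first with 1702 ± 53.7 (SD, n = 5), followed by PROCR with 399 ± 10.5 and TFPI with 63.4 ± 7.90. F3 (43.2 ± 4.47) and SERPINE2 (36.1 ± 1.87) came next and overlapped, and PLAUR lay at 17.0 ± 1.69. TFPI2, PLAT and THBD, at 3.45 ± 1.20, 2.86 ± 0.906 and 2.49 ± 0.849, overlapped their neighbours in the order. In shPAR1 cells the order was the same, but the spacing had changed. PLAU stood at 831 ± 63.1 and PROCR at 369.6 ± 27.4, while TFPI was at 157 ± 16.5 and F3 at 69.3 ± 5.00, now apart from SERPINE2 at 27.9 ± 2.53. PLAUR was at 17.9 ± 2.29, and TFPI2 (8.19 ± 1.96), PLAT (4.41 ± 1.05) and THBD (3.29 ± 1.14) again overlapped their neighbours.

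The order depends on the length used. Per kilobase of the MANE Select transcript, a choice made after seeing the data, PLAU (2142), PROCR (502) and TFPI (193) also led in shCtrl cells, but SERPINE2 (145) came before F3 (54.2). PLAUR (55.3) overlapped F3, and PLAT (7.27) overlapped TFPI2 (3.82), so neither pair has an order there. In shPAR1 cells TFPI (475) and PROCR (465) then overlapped behind PLAU (1046).

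**Figure D2:**
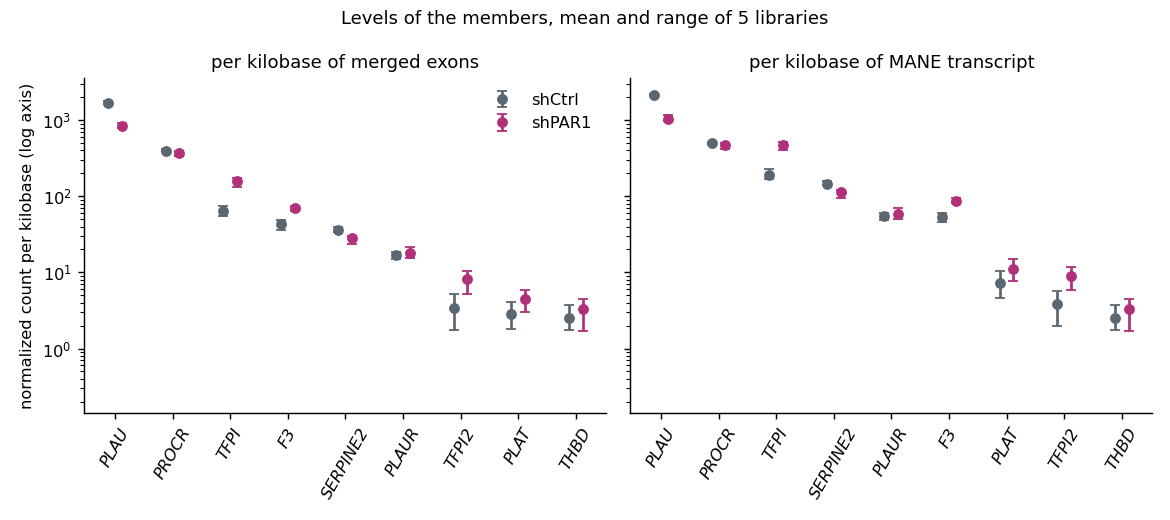
Normalized counts per kilobase (log axis) of merged exons (left) and of the MANE Select transcript (right) for the 9 genes in shCtrl and shPAR1 cells. Points give the mean and bars the range over 5 libraries, and the order of genes differs between the panels. Per kilobase of merged exons, PLAU is the highest gene in both groups (1702 in shCtrl and 831 in shPAR1 cells) and THBD the lowest (2.49 and 3.29).

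Since proteases and their inhibitors act as pairs, differences of log2 values within a library were also taken, and they are given as a description with no test. F3 minus TFPI, initiator against inhibitor, lay between -3.43 and -2.96 in shPAR1 and between -2.73 and -2.39 in shCtrl libraries. The initiator lay further below its inhibitor in shPAR1 cells, by 0.62 on the log2 scale, although both were higher there. PLAU minus SERPINE2, urokinase against protease nexin-1, was 3.29 ± 0.13 in shPAR1 and 3.95 ± 0.11 in shCtrl cells (mean ± SD, n = 5 each), urokinase at a log2 fold change of -1.04 and this inhibitor at -0.38. PLAU minus PLAUR, protease against receptor, was 4.93 ± 0.15 and 6.04 ± 0.15 (SD, n = 5 each). PLAU minus PLAT, the pair of plasminogen activators, moved most of these, and was 6.15 ± 0.28 in shPAR1 against 7.81 ± 0.44 in shCtrl cells (mean ± SD, n = 5 each). For each of these differences the groups did not overlap. PLAU stands in all of them but F3 minus TFPI, and PLAU, F3 and TFPI each did not overlap on their own. The separation thus largely restates the single genes, and a share over other gene pairs was not computed. These within-library values are not per length, so only their change between groups can be read.

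**Figure D3:**
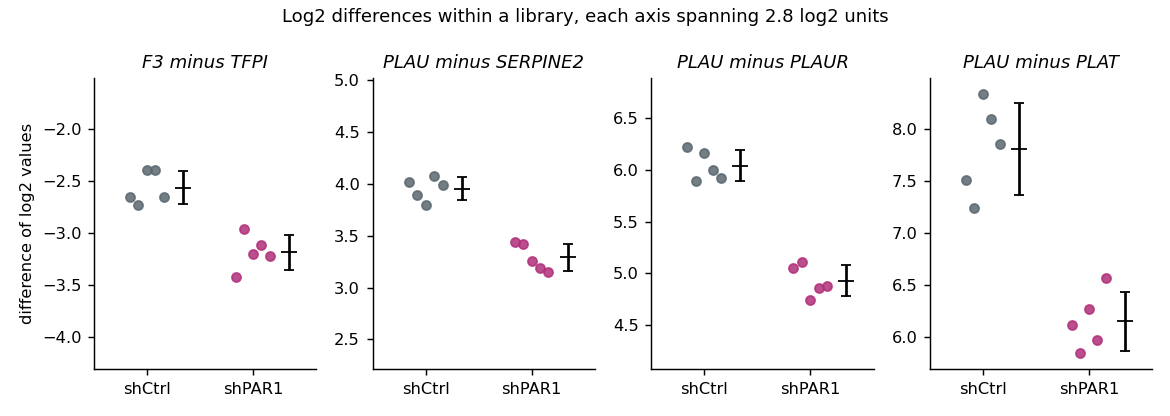
Differences of log2 values between genes of 1 library (y axes, each spanning the same number of log2 units around its own centre) in 5 shCtrl and 5 shPAR1 libraries, with bars for mean and SD (n = 5). In all 4 panels the shPAR1 libraries lie below the shCtrl libraries, closest together for F3 minus TFPI (-2.96 at the highest against -2.73 at the lowest) and PLAU minus SERPINE2 (3.44 against 3.80).

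On the receptor side, 3 of 4 genes of protease-activated receptors were tested and all 3 were lower, beside 21.9% of all tested genes. F2R is the target of the hairpin, so its decrease was set by the design and only F2RL2 and F2RL1 add to it. F2R was 66.0% lower in normalized counts (log2 fold change -1.56, SE 0.040, adjusted p = 7.69e-15 from limma). F2RL2, the gene of PAR3, was at 7.28, 7.46, 7.38, 7.63 and 7.46 in shPAR1 and at 8.70, 8.80, 8.62, 8.72 and 9.02 in shCtrl libraries, which is 60.4% lower (SE 0.083 on the log2 scale, adjusted p = 5.25e-10 from limma). F2RL1, the gene of PAR2, which responds to trypsin-like proteases and to factor VIIa with tissue factor, was 32.2% lower (adjusted p = 1.39e-09 from limma). F2RL3 (PAR4) held 0 to 8 counts per library and was not tested. F3 minus F2R, a difference taken after seeing the values, was -2.58 ± 0.14 in shPAR1 and -4.82 ± 0.13 in shCtrl cells (mean ± SD, n = 5 each). The larger part of this shift lies in F2R, the hairpin's target, at -1.56 beside 0.68 for F3.

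Beyond tissue factor, few coagulation factors reached the count minimum. Of 16 listed factors 7 had values, and F8 and F12 alone were tested, while F2, the gene of prothrombin, held 4 to 11, F7 0 to 3 and F10 3 to 15 counts per library. F8 had a log2 fold change of 0.24 (SE 0.093, adjusted p = 0.0441 from limma), a call that was lost with no filter on low counts and without library 3, 4, 5, 7, 8 or 10, and F12 one of 0.05 (adjusted p = 0.713). Of 8 anticoagulant proteins 2 were tested. PROS1, which encodes protein S, a cofactor of activated protein C and of TFPI, rose from a range of 9.39 to 9.50 in shCtrl to 9.67 to 9.98 in shPAR1 libraries (log2 fold change 0.37, SE 0.058, adjusted p = 4.47e-05 from limma). PROC, the gene of protein C, had 0.48 (SE 0.29, adjusted p = 0.211 from limma) at 5 to 14 counts per library. The median log2 fold change of the tested genes was 0.15 for the factors and 0.43 for the anticoagulant proteins, each over 2 genes. The other listed genes of these groups were below the count minimum or not analysed here.

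Among plasminogen and its regulators, 3 of 9 listed genes were tested, with 1 higher, 1 lower and 1 not past the test. SERPINI1, the gene of neuroserpin, an inhibitor of tissue-type plasminogen activator, was higher by 0.88 (SE 0.15, adjusted p = 1.41e-04 from limma). SERPINB6, an intracellular serpin gene, had -0.12 (adjusted p = 0.0463 from limma), a call that 11 of 16 alternatives lost, and SERPINB8 had -0.52 (adjusted p = 0.0582). PLG, the gene of plasminogen, held 0 to 4 counts per library. The median log2 fold change of the 3 tested genes was -0.12. Their 1 higher and 1 lower call stand beside 19.0% and 21.9% of all tested genes.

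Of 13 genes for plasminogen receptors and urokinase uptake, 12 were tested, and 4 were higher, 4 lower and 4 not past the test. Those that rose were LRP1, the receptor that clears complexes of urokinase with its inhibitor (log2 fold change 0.91, SE 0.069, adjusted p = 7.46e-09 from limma), MRC2, a collagen receptor that associates with the urokinase receptor (0.75, SE 0.061), LRPAP1, a chaperone of LRP1 (0.34), and ITGAV, an integrin subunit (0.25). LRP1 ranged from 10.62 to 11.004 in shPAR1 and from 9.79 to 10.07 in shCtrl libraries. Those that fell were ENO1 (-0.28), ANXA2 (-0.28) and S100A10 (-0.29), which encode surface proteins that bind plasminogen, and SORL1 (-0.43, SE 0.038), a sorting receptor gene. The list's median was -0.01, close to that of all tested genes. Over all tested genes 19.0% were called higher and 21.9% lower.

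Of 19 other proteases that can cleave PAR1, 4 were tested, with 2 higher, 0 lower and 2 not past the test. MMP1, the interstitial collagenase, was at 10.34, 10.37, 10.49, 10.41 and 10.47 in shPAR1 and at 8.04, 7.74, 8.16, 7.86 and 8.13 in shCtrl libraries. This is 5.38-fold higher in normalized counts, with a log2 fold change of 2.43 (SE 0.073, adjusted p = 4.08e-14 from limma), a larger change than for any of the 9 genes. CAPN1, a calpain gene, was higher by 0.34 (SE 0.045), and MMP2 (-0.10, adjusted p = 0.0795 from limma) and PRTN3 (0.15, adjusted p = 0.648 from limma) did not pass. MMP9, the PAR1 agonist at the centre of the study's question, held 0 to 6 counts per library and was not tested. The median of the 4 tested genes was 0.25, and their 2 higher calls stand beside 19.0% of all tested genes.

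Vitamin K-dependent modification and the lipid surface, on which coagulation factors assemble, were examined last. Of 7 genes of the vitamin K cycle and propeptide processing, NQO1 (0.48), GGCX, the gamma-glutamyl carboxylase gene (0.28), and LMAN1 (0.18, a call lost without library 8) were higher, VKORC1L1 (-0.29) was lower and 3 did not pass. Of 5 genes that set phosphatidylserine exposure, 4 were higher and ANO6, a scramblase gene, did not pass (0.04, adjusted p = 0.417 from limma). Most of these do not expose the lipid, since ATP8B1 (1.18, SE 0.077), ATP11A (0.19) and their subunit gene TMEM30A (0.25) encode flippases, which move lipid to the inner leaflet. XKR8 (0.36, SE 0.080) encodes a scramblase. The median log2 fold change was 0.07 over the 7 vitamin K genes and 0.25 over the 5 phosphatidylserine genes. Among all tested genes 19.0% were called higher and 21.9% lower. Counts from lists this short are a description only.

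**Figure D4:**
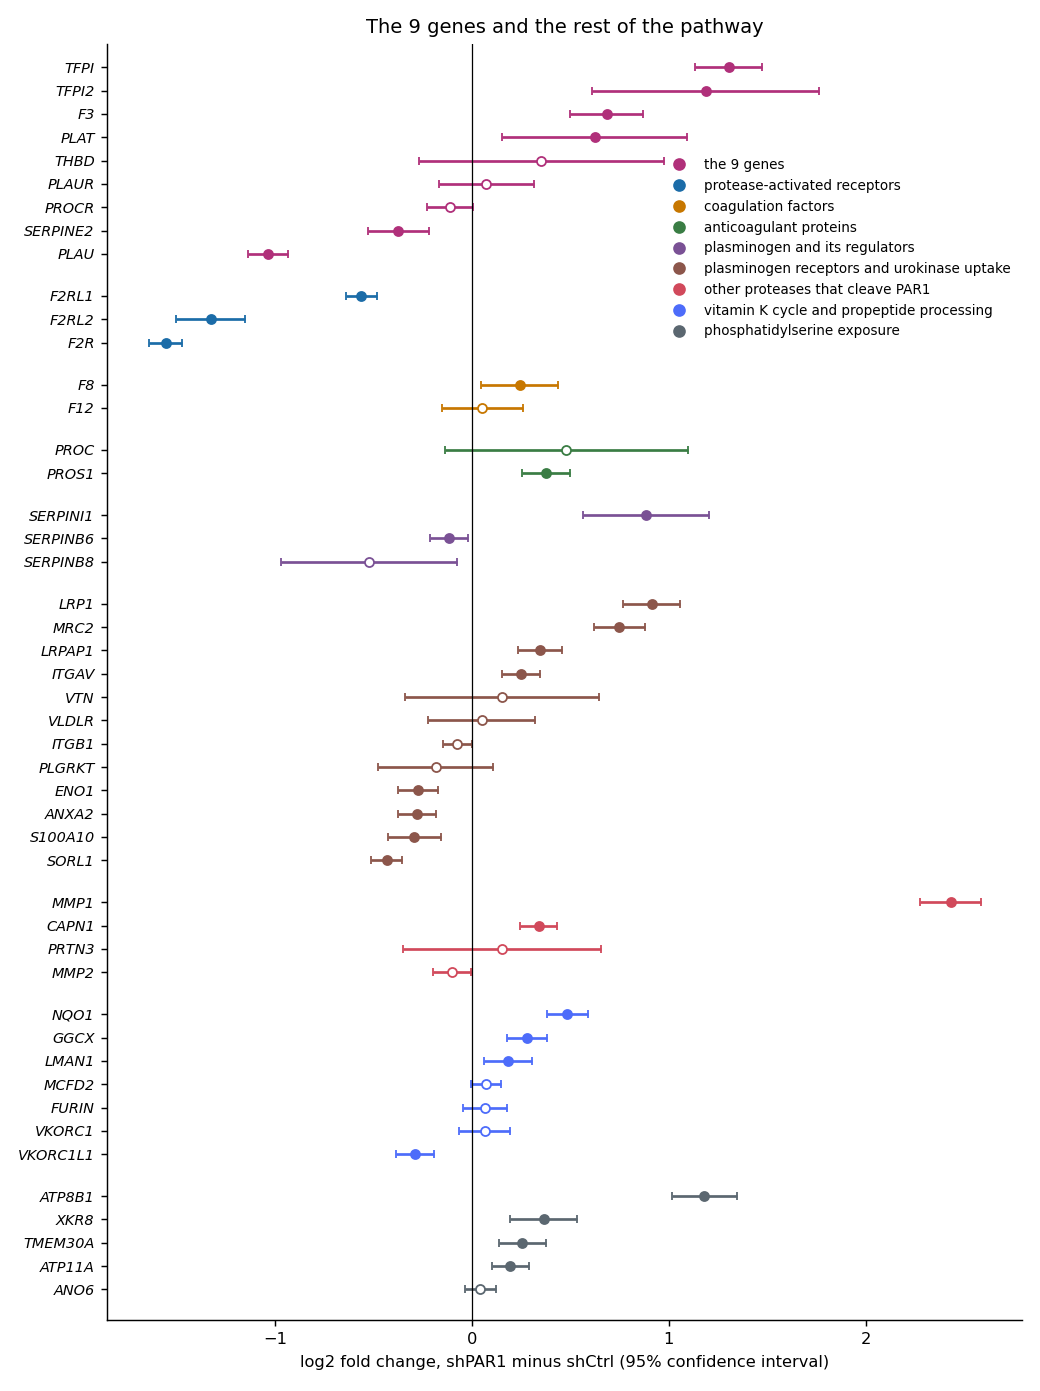
Log2 fold changes (x axis, shPAR1 minus shCtrl, 0 marked by the line) of the 9 genes and of tested genes of 8 pathway lists, with bars for 95% confidence intervals, filled points for an adjusted p under 0.05 and open points for the rest. TFPI (1.30) is highest and PLAU (-1.04) lowest among the 9 genes, and MMP1 (2.43) and F2R (-1.56) are the extremes of all genes drawn.

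The genes most like F3 and TFPI across the 10 libraries were sought by Pearson's r of log2 values over 17517 other genes. For F3 these were IP6K2, an inositol hexakisphosphate kinase gene (r = 0.988), TFF1, a trefoil factor gene (0.987), and UNC13C (0.985). For TFPI they were CACNA2D1, a calcium channel subunit gene, GALC, the galactosylceramidase gene, and GALNT7, a glycosyltransferase gene, each at r = 0.996. The 10 libraries form 2 separate groups, so r carries mainly the difference between shPAR1 and shCtrl cells, and 658 genes for F3 and 915 for TFPI had an r over 0.9.

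TFPI, PROCR, THBD and PLAT are also endothelial genes, PLAU, PLAUR and F3 are also expressed by macrophages and fibroblasts, and markers of those cells were therefore read. Of 6 endothelial markers 4 had values. ESAM was the only one tested and did not pass, and KDR held at most 5 and VWF at most 6 counts. PECAM1 held 2, 4, 2, 5 and 1 counts in shPAR1 libraries 1 to 5 and 0, 1, 0, 0 and 0 in shCtrl libraries 6 to 10, and its log2 values did not overlap between the groups. The summed normalized counts of the list, most of them from ESAM, were 50.3 to 70.9 in shPAR1 and 50.2 to 70.2 in shCtrl libraries. Of 6 macrophage markers 4 had values, CD14 and CSF1R were tested and did not pass, PTPRC held at most 3 counts, and the sums were 29.8 to 45.9 and 25.2 to 34.3. Of 6 fibroblast markers 3 had values and all were called, beside 40.9% of all tested genes. COL3A1 (5.28) and PDGFRB (0.37) were higher and COL1A1 (-0.43) lower, with sums of 5927 to 7096 in shPAR1 and 4652 to 5414 in shCtrl libraries. Of 6 acinar enzyme genes 3 had values, none reached the count minimum, and the sums were 2.49 to 14.7 and 4.03 to 9.00. The part of PECAM1 and of the fibroblast and ductal marker changes in the results for the 9 genes was not tested.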

How the data were processed

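Total RNA of shPAR1 and shCtrl PANC-1 cells was depleted of ribosomal RNA and sequenced as single reads. Per the labels and the paper's methods, the authors used FastQC 0.11.5, Trimmomatic 0.36, HISAT2 2.1.0 with GRCh38, HTSeq and DESeq2. Strand setting and annotation release were not given in the sources used here. Each deposited value is on a log2 scale, which the authors made from counts divided by a size factor per library, with a pseudocount of 1. Undoing this gave whole counts within 0.0011. On this scale changes of genes at low counts come out too small, and counts give precision for counting error only. Groups came from the labels, and no 2 libraries were identical.

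Genes that reached a normalized count of 10 in 5 or more libraries were tested with limma 3.58.1 (R 4.3.3, trended prior variance, Benjamini-Hochberg adjustment at 0.05) on the deposited values, since these are log2 values and not counts. The fit was also run on simulated data in which far fewer genes changed than were called here, and its outcome is not given. Confidence intervals are for single genes. Exact permutation tests were two-sided over all 252 divisions of the libraries. Identifiers were matched to GENCODE 44 (27361 matched) for coordinates and lengths, and promoters came from RefSeq. The 9 genes and all lists were chosen with earlier results of these data known, and lists are described by counts and medians. The rule for named genes took the 9 genes, the 4 protease-activated receptor genes, up to 4 genes past the threshold from each list by size of change, the 3 genes most like F3 and like TFPI, and the markers. Other list genes were named after their values were seen, and some list genes are not reported here. Alternatives were voom, no filter, a stricter filter, other size factors, a pseudocount of 5 and each library left out in turn. Tables and tests of single genes used Python 3.11.15 with numpy 2.4.6, pandas 2.3.3 and scipy 1.17.1.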

Additional observations from a re-analysis of the deposited data

How the results depend on the processing

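Under 16 alternatives the calls and directions of F3 (log2 fold change 0.62 to 0.74), TFPI (1.26 to 1.37), SERPINE2 (-0.41 to -0.32), PLAU (-1.07 to -1.01), PROCR (-0.14 to -0.08) and PLAUR (0.003 to 0.13) did not change. The same held for TFPI2 (0.91 to 1.33) and THBD (0.23 to 0.55) in the 15 alternatives that tested them, since the stricter filter, a minimum of 1 CPM in every library of a group, left out both. PLAT kept its direction (0.48 to 0.76, adjusted p from limma 0.0120 to 0.0931) and lost its call in 6 alternatives. For 49 other listed genes 777 values were computed, of which 19 lost a call (F8, SERPINB6, and LMAN1 without library 8) and 6 gained one (SERPINB8, ITGB1, MMP2, MCFD2 and KRT7). In 6 the direction turned, all for genes that did not pass the test, with VTN at -0.0048 under voom and, with a library left out, F12 at -0.030 to 0.094, VLDLR at -0.016 to 0.14, ESAM at -0.048 to 0.12 and CD14 at -0.11 to 0.18. The number of coagulation factors called higher was 0 to 1 with a library left out. For plasminogen and its regulators, the genes called lower numbered 0 to 1 with a library left out (0 without library 1, 2, 3, 4, 6, 8 or 10, where SERPINB6 lost its call), 0 with upper quartile scaling, and 0 with no filter, where 2 were called higher. Other proteases that cleave PAR1 called lower numbered 0 to 1, the 1 being MMP2 without library 2. No paired analysis was possible because the labels give each library its own number and the groups share none. The low counts of TFPI2, THBD and PLAT limit what could be detected, and values of protein or protease activity were not analysed here.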

Other observations

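Some genes of the pathway below the count minimum are given as values only. F10, the gene of factor X, the substrate of tissue factor with factor VIIa, held 7, 9, 15, 12 and 8 counts in shPAR1 libraries 1 to 5 and 5, 6, 7, 7 and 3 counts in shCtrl libraries 6 to 10, with log2 values of 3.12 to 4.17 against 1.75 to 3.09. PLG, the gene of plasminogen, held 3, 4, 3, 3 and 1 counts against 0, 0, 1, 0 and 1. At these counts no fold change is given, and both genes were picked for mention after their values were seen.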
